A study of Rattus norvegicus with 9 samples.

Results

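The clock output transcription factors are genes that the circadian oscillator drives and that pass its timing on to other genes. The members were fixed by name as Dbp, Tef, Hlf, Nfil3, Bhlhe40, Bhlhe41 and Rora, 7 genes in all, and each was looked up through the RefSeq accession of the array's probes. A probe was matched for 4 of the 7, namely Dbp (gene ID 24309), Tef (29362), Nfil3 (114519) and Bhlhe40 (79431), out of 13438 named genes on the array. Each of the 4 had 1 probe with 1 spot, and all 4 were well above background on all 9 arrays. Hlf, Bhlhe41 and Rora were not matched and were not analysed here.

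The livers came from 9 male Wistar rats in 3 groups of 3, and the RNA of each rat was labelled with Cy3 and read on its own Agilent array. The control rats were not irradiated (0 Gy) and are labelled as normal controls, with no drug named for them. The TBI rats received total-body irradiation of 6.5 Gy from a 60Co source at 2 Gy/min. The HSC + TBI rats received the same exposure after 3 days of intragastric Hong Shan Capsule (HSC), a crude drug made of medicinal herbs. The series design gives its dose as 10 g/kg/day and the sample labels as 30 mg/kg/day. No group had HSC without TBI. Tissue was collected 24 h after irradiation. The clock hour of exposure, the clock hour at which livers were taken and the light schedule are not given in the sources used here. The labels call the arrays replicates of a group and name no litter, day or cage.

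The mammalian clock is a feedback loop in which Bmal1 with Clock or Npas2 activates genes through E-boxes, and the Per and Cry proteins block that activation. Dbp, Tef and Hlf are PAR bZIP factors that activate genes through D-boxes, and Nfil3 represses the same sites. Bhlhe40 and Bhlhe41 repress at E-boxes. Rora activates and the Nr1d receptors repress at RORE sites, among them those of Bmal1 and Nfil3. In liver, the PAR bZIP factors are known for the rhythmic expression of detoxifying enzymes.

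The promoter sequences of the 4 measured genes are shown because the E-box and the RORE are the sites through which the loop acts on these genes. Each is the 250 bases before the annotated start in RefSeq (GRCr8), 5′ to 3′ on the gene's strand, and capitals mark an E-box (CACGTG). The windows are chr1:105312006-105312255 (+) for Dbp, chr7:115206577-115206826 (+) for Tef, chr17:12432126-12432375 (+) for Nfil3 and chr4:143174200-143174449 (+) for Bhlhe40.
Dbp promoter: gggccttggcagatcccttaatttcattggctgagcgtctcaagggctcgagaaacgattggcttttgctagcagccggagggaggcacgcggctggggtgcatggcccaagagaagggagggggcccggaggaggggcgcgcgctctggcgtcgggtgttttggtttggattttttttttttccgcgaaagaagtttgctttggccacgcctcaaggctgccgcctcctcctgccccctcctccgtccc
Tef promoter: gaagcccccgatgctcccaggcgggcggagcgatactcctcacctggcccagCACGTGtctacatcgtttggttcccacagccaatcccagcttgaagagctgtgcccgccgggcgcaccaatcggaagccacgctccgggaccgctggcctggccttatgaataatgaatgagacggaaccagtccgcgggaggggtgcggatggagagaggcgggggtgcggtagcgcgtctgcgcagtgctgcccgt
Nfil3 promoter: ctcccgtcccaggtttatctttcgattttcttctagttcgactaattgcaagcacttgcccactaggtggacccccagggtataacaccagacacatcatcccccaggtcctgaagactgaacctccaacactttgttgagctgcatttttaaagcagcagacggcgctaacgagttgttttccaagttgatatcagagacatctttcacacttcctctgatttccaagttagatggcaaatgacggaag
Bhlhe40 promoter: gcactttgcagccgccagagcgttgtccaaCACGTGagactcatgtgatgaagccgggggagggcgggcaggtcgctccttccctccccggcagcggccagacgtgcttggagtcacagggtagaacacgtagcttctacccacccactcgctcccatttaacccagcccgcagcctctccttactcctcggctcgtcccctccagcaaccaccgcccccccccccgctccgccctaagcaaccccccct

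The first base of the E-box stood at -198 from the start of Tef and at -220 from that of Bhlhe40. They were not in the windows of Dbp and Nfil3. Of 33469 RefSeq promoters of the same length, 5.59% held CACGTG. The D-box letters TTANGTAA and the RORE letters TNGGTCA, searched on both strands, were in none of the 4 windows, and 2.04% and 9.47% of all promoters held them. A match or its lack describes these letters in this window and nothing about binding. An entry was at hand for 6 of the 7 listed genes, and CACGTG was also in the window of Bhlhe41, at -48, while that of Rora held none of the 3 motifs.

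Dbp and Tef were lower in TBI than in control livers, Dbp by 3.77-fold and Tef by 1.98-fold. In HSC + TBI livers, Dbp was 2.10-fold lower than in control livers, and Tef lay close to the control level. The value of Nfil3 was higher in TBI than in control livers and that of Bhlhe40 was lowest in HSC + TBI livers, but neither passed the test. Values are processed spot signals on the log2 scale, normalized by quantiles, so a difference of 1 is a doubling. A probe was called at a limma adjusted p (Benjamini-Hochberg over 25369 tested probes) under 0.05 together with a change of 1.5-fold or more.

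Dbp encodes the D-site binding protein, the PAR bZIP factor with the best known liver rhythm. Its log2 signal was 13.32, 13.32 and 13.33 in the control rats. It was 11.13, 11.86 and 11.22 in the TBI rats and 12.51, 12.20 and 12.04 in the HSC + TBI rats. The 3 groups did not overlap, with control livers highest and TBI livers lowest. The control values lay within an SD of 0.0052, and under a shift of each array to its 75th percentile they were 13.26, 13.20 and 13.23. Before normalization, the Dbp signal was 8318, 10080 and 9221 in control, 1905, 3897 and 4188 in TBI, and 5750, 4540 and 3788 in HSC + TBI rats. On that scale the control rats were still the 3 highest, but TBI and HSC + TBI rats overlapped, and TBI replicate 3 was the brightest array of all.

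Between TBI and control, the Dbp signal fell by 1.92 on the log2 scale (SE 0.21, 95% interval -2.38 to -1.45, n = 3 rats per group, limma adjusted p = 0.0020). The 3 TBI rats lay at -2.19, -1.46 and -2.10 from the control mean, each below every control. Among all tested probes it had the 211th lowest value, and 1.56% of probes changed by as much or more in either direction. With 1 rat left out at a time the difference ranged from -2.15 to -1.78 and was called each time. Between HSC + TBI and control the signal fell by 1.07 (SE 0.21, 95% interval -1.54 to -0.60, limma adjusted p = 0.031). This second call was lost when any 1 of the 3 control or the 3 HSC + TBI rats was left out, at adjusted p of 0.0582 to 0.107, while the difference stayed between -1.20 and -0.96.

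Dbp was 1.798-fold higher in HSC + TBI than in TBI livers, a difference of 0.85 on the log2 scale (95% interval 0.38 to 1.31). It was not called (limma adjusted p = 0.11, unadjusted p = 0.0028), although the lowest HSC + TBI rat lay above the highest TBI rat. The intervals here are those of a single probe and carry no adjustment for the number of probes. In whole liver, fewer cells of a type and less RNA per cell cannot be told apart, for this and every other member.

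Tef encodes thyrotroph embryonic factor, a PAR bZIP relative of Dbp. Its log2 signal was 9.12, 9.19 and 8.95 in control rats, 8.22, 8.38 and 7.71 in TBI rats, and 8.92, 8.77 and 8.82 in HSC + TBI rats. All 3 TBI rats were below every other rat, and the 3 HSC + TBI rats lay just under the lowest control. Between TBI and control the signal fell by 0.98 on the log2 scale (SE 0.17, 95% interval -1.38 to -0.58, limma adjusted p = 0.014), and it was called with any 1 rat left out, from -1.12 to -0.79. TBI replicate 3, the lowest, lay at -1.38 from the control mean, and the other TBI rats at -0.87 and -0.71. Between HSC + TBI and control the difference was -0.25 (95% interval -0.65 to 0.15, limma adjusted p = 0.48). Against TBI, the HSC + TBI rats differed by 0.73 (95% interval 0.33 to 1.13, limma adjusted p = 0.10, unadjusted p = 0.0026), which was not called. The order of the group means was control, HSC + TBI and TBI, as for Dbp, and for Tef only the outer pair differed past the thresholds.

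Nfil3, also known as E4bp4, encodes the bZIP repressor that competes with Dbp and Tef at D-boxes. Its log2 signal was 8.79, 9.47 and 9.22 in control rats, 9.58, 9.91 and 10.23 in TBI rats, and 9.59, 8.92 and 9.19 in HSC + TBI rats. The 3 TBI rats lay above every control rat, and HSC + TBI replicate 1 reached the lowest TBI rat while the other HSC + TBI rats lay among the controls. The difference between TBI and control was 0.75 (SE 0.25, 95% interval 0.18 to 1.31), or 1.68-fold. It did not pass (limma adjusted p = 0.10, unadjusted p = 0.015), and the adjusted p ran from 0.0788 to 0.247 with 1 rat left out. Between HSC + TBI and control the difference was 0.07 (95% interval -0.49 to 0.63, limma adjusted p = 0.91). Against TBI it was -0.67 (95% interval -1.24 to -0.11, limma adjusted p = 0.23).

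Bhlhe40, also known as Dec1, encodes an E-box repressor that many stimuli besides the clock induce. Its log2 signal was 8.81, 9.10 and 9.44 in control rats, 8.43, 8.71 and 9.46 in TBI rats, and 8.63, 8.29 and 8.37 in HSC + TBI rats. The TBI rats spanned the whole control range, with TBI replicate 3 the highest of all 9 rats, and the 3 HSC + TBI rats lay below every control. The difference was -0.25 between TBI and control (95% interval -0.87 to 0.37, limma adjusted p = 0.60). It was -0.69 between HSC + TBI and control (95% interval -1.31 to -0.07, limma adjusted p = 0.21). Against TBI, the HSC + TBI difference was -0.44 (95% interval -1.05 to 0.18, limma adjusted p = 0.47). Unlike Dbp, Tef and Nfil3, the mean of the HSC + TBI rats did not lie between those of the control and TBI rats, a description for which no test was made.

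**Figure D1:**
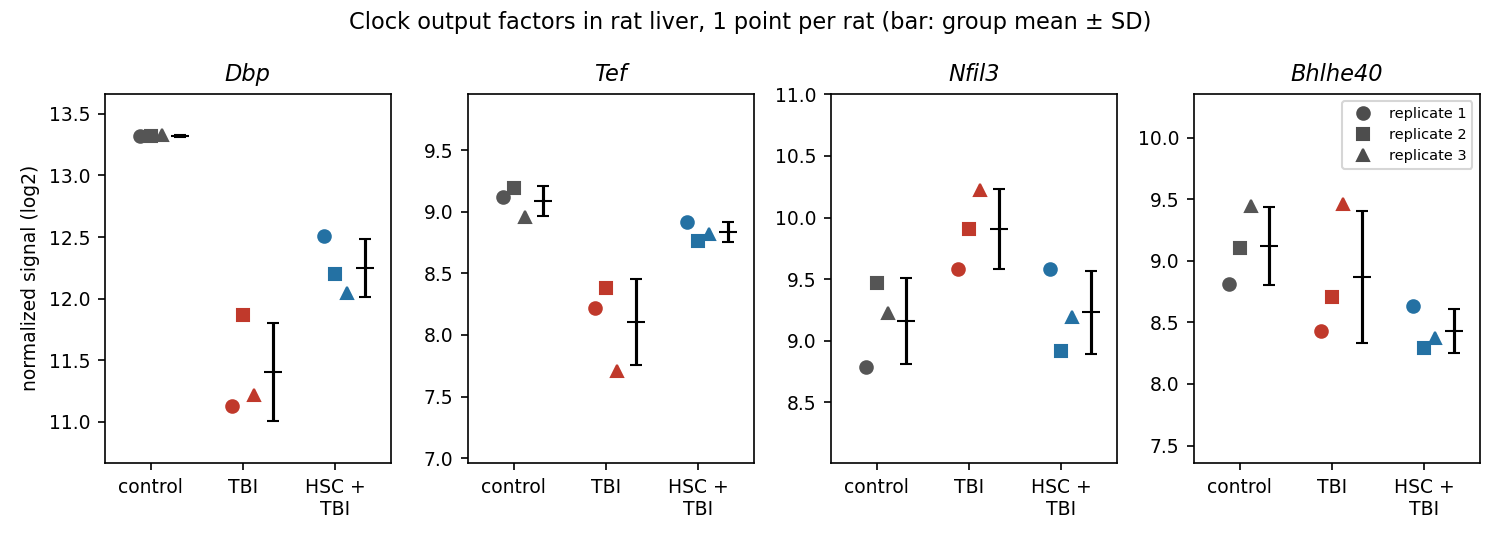
Normalized log2 signal (y axis) of the 4 measured clock output factors by group (x axis), with 1 point per rat, replicates by symbol, and a bar for the group mean ± SD (n = 3). Each panel spans the same number of log2 units, and the 3 groups are apart for Dbp, the TBI rats are lowest for Tef, and for Bhlhe40 the TBI rats overlap both other groups while the HSC + TBI rats lie below the controls.

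The members differed in how much rats of one group varied. The residual SD of the fit was 0.22 for Tef, 0.27 for Dbp, 0.34 for Nfil3 and 0.37 for Bhlhe40 on the log2 scale, beside a median of 0.23 over all tested probes. Dbp and Tef, which were called, had a smaller spread than the other pair, and the intervals of Nfil3 and Bhlhe40 were the widest. No rat stood apart for all members. TBI replicate 3 had the lowest Tef of the 9 rats together with the highest Nfil3 and Bhlhe40, whereas TBI replicate 1 had the lowest Dbp.

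**Figure D2:**
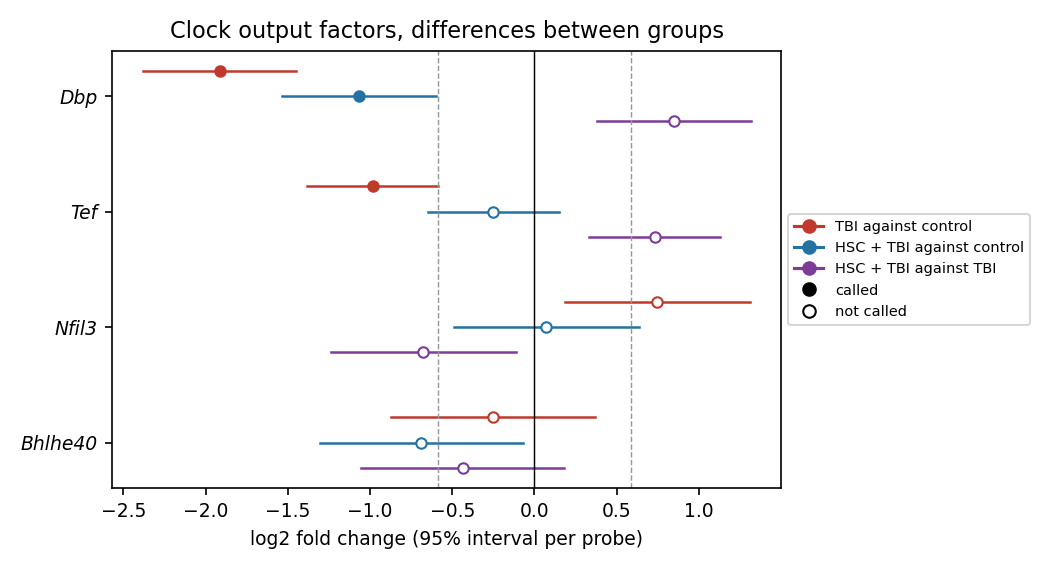
Log2 fold change (x axis) of the 4 measured genes (y axis) in each pair of groups, with lines for the 95% interval of each probe, filled points for called differences, and dashed lines at 1.5-fold. The filled points are Dbp against control in both irradiated groups, at -1.92 and -1.07, and Tef in TBI against control, at -0.98.

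Between TBI and control, 2 of the 4 measured members were called, both lower, where 7.25% of all tested probes were called in either direction, 3.71% lower and 3.54% higher. The 3 TBI rats did not overlap the 3 controls for 3 of the 4 members (Dbp, Tef and Nfil3), beside 28.8% of all probes. Between HSC + TBI and control, 1 of 4 (Dbp) was called, where 3.23% of all probes were. The rats did not overlap for 3 of the 4 members there (Dbp, Tef and Bhlhe40), beside 31.7%. Between HSC + TBI and TBI, limma called 0 of 4, where 0.796% of all probes were called. At an unadjusted p under 0.05 the count was 3 of 4 (Dbp, Tef and Nfil3), beside 16.3% of all probes, and the rats did not overlap for 2 of 4 (Dbp and Tef), beside 21.4%. Both differences against control share the control rats, and both differences that involve TBI share the TBI rats, so they are given side by side and not as separate support.

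The core clock genes that drive the members were read from a list of 16 genes, of which 13 had a probe and were tested. In TBI against control, 3 were called higher and 4 lower, beside 3.54% and 3.71% of all tested probes. In HSC + TBI against control, 1 was higher and 1 lower, beside 3.23% of all tested probes called in either direction. Bmal1, the activator at the head of the loop, had log2 signals of 4.85, 5.15 and 5.47 in control, 8.31, 7.46 and 8.55 in TBI, and 6.64, 6.49 and 6.84 in HSC + TBI rats. The groups did not overlap, and their order was the reverse of that of Dbp. Bmal1 rose by 2.95 on the log2 scale in TBI (limma adjusted p = 0.0011) and by 1.502 in HSC + TBI livers (limma adjusted p = 0.029), and the difference between these groups was -1.45 (limma adjusted p = 0.066).

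Npas2, the partner that can replace Clock, rose by 1.34 in TBI livers (limma adjusted p = 0.034), and its value in HSC + TBI livers differed from control by 0.09. Clock itself rose by 0.67 in TBI (limma adjusted p = 0.047) and was dim, above background on 2 of the 3 control arrays. Among the repressors, Cry2 fell by 1.22 in TBI (limma adjusted p = 0.0036) and by 0.78 in HSC + TBI livers (limma adjusted p = 0.032). Per3 fell by 1.10 (limma adjusted p = 0.034), Nr1d1, the repressor of Bmal1 and Nfil3, by 0.80 (limma adjusted p = 0.018) and Per2 by 0.79 (limma adjusted p = 0.029), and none of these 3 was called in HSC + TBI against control, where their values were -0.21, -0.48 and 0.29. Per2 was the 1 clock gene called between HSC + TBI and TBI, where it rose by 1.08 (limma adjusted p = 0.041). Of all tested probes, 0.796% were called there. Per1 did not pass, with 0.13 in TBI and 0.42 in HSC + TBI livers.

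The median log2 fold change of the 13 clock genes was -0.17 in TBI and -0.03 in HSC + TBI against control, beside -0.01 and 0.05 over all tested probes. With 1 rat left out, Bmal1 and Cry2 stayed called in TBI in every case. Clock, Npas2, Nr1d1, Per2 and Per3 each lost their call for some rats. The count of 7 dropped to 2 without control replicate 1 and to 3 without control replicate 2 or 3. It dropped to 4 without HSC + TBI replicate 3. It was also 4 without TBI replicate 1, but Clock, Npas2, Per2 and Per3 lost their calls there. That count thus held a gene not called with all rats. Over all probes, 3.5 to 9.43% were called with 1 rat left out, beside 7.25%. In HSC + TBI against control, both calls (Bmal1 and Cry2) were lost without any 1 control or HSC + TBI rat, and the call of Per2 against TBI was lost in 6 of 9 such fits. Under normexp background correction the TBI differences were smaller. They were 1.42 for Bmal1, 0.63 for Npas2 and -0.61 for Cry2, which stayed called. Nr1d1, at -0.58, and Per2, at -0.53, still passed the adjusted p (limma adjusted p = 0.023 and 0.026). These genes missed only the 1.5-fold minimum. Clock, at 0.14 (limma adjusted p = 0.16), and Per3, at -0.32 (limma adjusted p = 0.054), missed both thresholds. The count of 7 was then 3, and in HSC + TBI against control and against TBI it was 0. Over all probes, normexp called 2.62% in TBI against control and 1.93% in HSC + TBI against control. It called 0.0237% in HSC + TBI against TBI, so a count of 0 there says little about these genes. For Npas2 and Per3 a second, dimmer probe gave 0.54 and -0.62 in TBI and was not called.

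**Figure D3:**
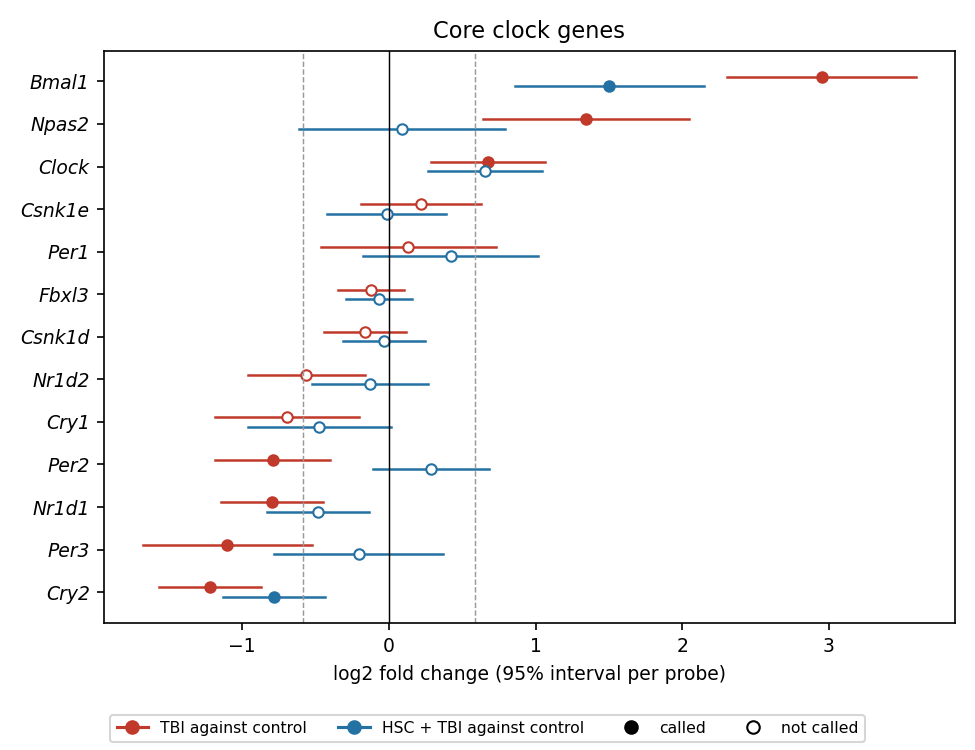
Log2 fold change (x axis) of the 13 tested core clock genes (y axis) in TBI and in HSC + TBI livers against control, with lines for the 95% interval of each probe, filled points for called differences and dashed lines at 1.5-fold. Bmal1 is highest at 2.95 in TBI and 1.502 in HSC + TBI, and Cry2 is lowest at -1.22 and -0.78.

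The 3 target lists follow the site each member acts through, and they overlap, since Per1, Per2 and Nr1d1 each belong to more than 1 of them. The E-box list, of genes that Bmal1 activates and Bhlhe40 represses, holds Dbp, Tef and Bhlhe40 themselves. Of its 9 tested genes, 6 were called lower and 0 higher in TBI livers. Without the 3 members, 4 of 6 were called lower. Over all tested probes, 3.71% were called lower and 3.54% higher. Usp2, a clock-driven deubiquitinase, fell by 1.59 (limma adjusted p = 0.017) and Wee1, the kinase that restrains mitotic entry, fell by 1.19 (limma adjusted p = 0.0099), beside Nr1d1 and Per2. Of the other 2 Wee1 probes, 1 was called at -0.96 and 1 was not, at -2.24 (limma adjusted p = 0.076). The median of these 6 genes was -0.79 in TBI and -0.20 in HSC + TBI livers. In HSC + TBI against control limma called 0 of the 6, beside 3.23% of all tested probes. An unadjusted p under 0.05 was reached by 2 of the 6, beside 19.6% of all tested probes. Wee1, at -0.74, had the largest difference of the 6.

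The D-box list holds 14 genes, and 13 were tested, none of them a member. In TBI livers 4 were called lower and 2 higher, beside 3.71% and 3.54% of all tested probes. Por, the electron donor of the microsomal P450 enzymes, fell by 0.86 (limma adjusted p = 0.039) and Cyp2b1, a drug-metabolizing P450, fell by 0.77 (limma adjusted p = 0.045), with Per2 and Per3 as above. The other 3 tested Cyp2b1 probes disagreed with this brightest one and with each other, at -0.03 (limma adjusted p = 0.91), -1.12 (limma adjusted p = 0.060) and -2.02 (limma adjusted p = 0.034). Aldh1a1, a retinaldehyde dehydrogenase, rose by 1.42 (limma adjusted p = 0.021) and Cyp2a1, a steroid hydroxylase, rose by 0.88 (limma adjusted p = 0.044). Nr1i3, the nuclear receptor CAR, was at -0.98 (limma adjusted p = 0.070) and Ppara at -0.61 (limma adjusted p = 0.062), and neither passed. The median of the list in TBI livers was 0.13, against -0.01 over all probes.

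In HSC + TBI livers 2 of the 13 were called, both higher against control, beside 3.23% of all tested probes called in either direction. Aldh1a1 rose by 1.79 (limma adjusted p = 0.013) and Cyp7a1, the rate-limiting enzyme of bile acid synthesis, rose by 1.27 (limma adjusted p = 0.045). Without control replicate 2, HSC + TBI replicate 2 or HSC + TBI replicate 3, both calls were lost, and without control replicate 3 or HSC + TBI replicate 1 that of Cyp7a1 was. Cyp7a1 also lost its call without TBI replicate 1. Por, Nr1i3 and Ppara were at -0.39, -0.05 and -0.03 there. The median of the list was 0.29, beside 0.05 over all probes. In TBI against control the count of 6 fell to 0 without control replicate 3 and to 1 without TBI replicate 2. It fell to 2 without control replicate 1 or 2, TBI replicate 1, or HSC + TBI replicate 1 or 3, and to 3 without TBI replicate 3. Of the 6, only Cyp2b1 kept its call without control replicate 2, and only Aldh1a1 and Per2 without TBI replicate 3. Those 2 counts thus held genes not called with all rats. Over all probes, 3.5% were called without control replicate 3 and 4.9% without TBI replicate 2, beside 7.25% with all rats.

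The RORE list, on which Rora and the Nr1d receptors act, holds 12 genes, among them Nfil3, and all were tested. In TBI livers 5 were called higher and 1 lower, beside 3.54% and 3.71% of all tested probes. Beside Bmal1, Npas2 and Clock, Cyp7b1, an oxysterol hydroxylase, rose by 1.25 (limma adjusted p = 0.027) and G6pc1, the catalytic subunit that releases glucose, rose by 0.86 (limma adjusted p = 0.010), and Nr1d1 was the lower gene. Without Nfil3 the median of the 11 genes was 0.57 in TBI and 0.25 in HSC + TBI livers against control. In HSC + TBI livers 1 of the 12 was called against control, Bmal1, beside 3.23% of all tested probes. A second, dimmer G6pc1 probe did pass there, at 0.74 (limma adjusted p = 0.036), where the brighter one was at 0.48 (limma adjusted p = 0.11), so this count depends on the probe. Cry1 was at -0.69 in TBI and did not pass (limma adjusted p = 0.086). The count of 6 in TBI fell to 2 without control replicate 1 and to 3 without control replicate 3. That of 6 in the E-box list fell to 3 without control replicate 3. Over all probes, 4.88% were called without control replicate 1 and 3.5% without control replicate 3, beside 7.25% with all rats. Under normexp the RORE count was 3 in TBI and 0 in HSC + TBI against control, beside 2.62% and 1.93% of all probes. Cyp7b1, at 0.46, was no longer called.

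**Figure D4:**
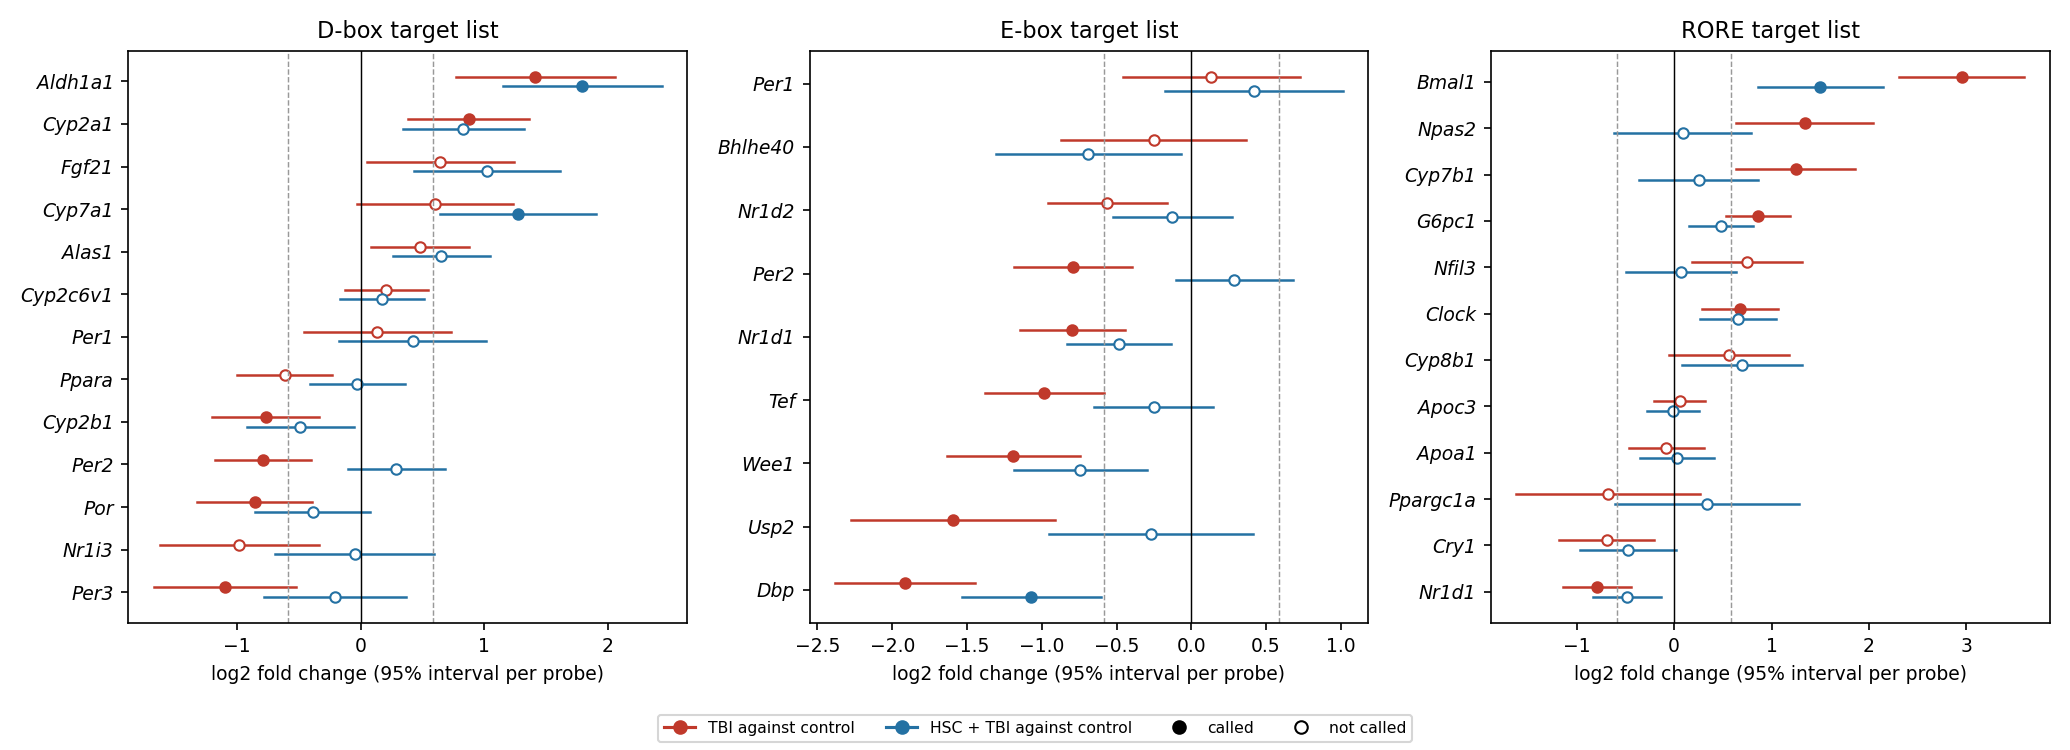
Log2 fold change (x axis) of the tested genes of the D-box, E-box and RORE lists (y axis) in TBI and in HSC + TBI livers against control, with lines for the 95% interval of each probe, filled points for called differences and dashed lines at 1.5-fold. The x axes differ in range, and the E-box genes lie mostly left of 0 in TBI livers, with Dbp lowest at -1.92, while the D-box genes lie on both sides.

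For each member the named genes with the most similar pattern were taken as those with the highest Pearson r over the 9 arrays, among 8531 genes above background on all arrays. The arrays share the group differences and the normalization, so r describes these libraries and carries no p. For Dbp they were Hsd17b2 (r = 0.971), Cry2 (0.970) and Gpr146 (0.957), and Chka ran most opposite (-0.983). For Tef they were Sfxn1 (r = 0.969), Pxmp2 (0.968) and Rabgap1l (0.960), with Adcyap1 most opposite (-0.968). For Nfil3 they were Pvr (r = 0.958), Pde4b (0.955) and C8h11orf52 (0.942), with Gak most opposite (-0.983). For Bhlhe40 they were Cdc42 (r = 0.964), Zfp384 (0.947) and Pias1 (0.941), with Igsf11 most opposite (-0.970). Of these 16 genes, Cry2 was the only one on the clock list.

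Hepatocyte markers were bright on every array, with 8 of 8 above background, and limma called 0 of 8 in each comparison, with 1 at an unadjusted p under 0.05 in TBI against control and 0 in the other pairs. Their mean log2 signal was 16.4 to 16.5 in control, 16.3 to 16.6 in TBI and 16.4 to 16.5 in HSC + TBI rats. The brightest, such as Tf at 18.164 on all 3 HSC + TBI arrays, lie at the top of the range. Quantile normalization gives every array the same set of values there, so the lack of calls for them says little. The 5 lymphocyte markers reported here had a mean of 5.22 to 5.39 in control, 2.96 to 4.02 in TBI and 2.93 to 3.21 in HSC + TBI rats. Of them, 2 of the 4 tested (Cd3g and Cd79b) were called lower in both irradiated groups, and Cd3e was above background on no array. Cd3g was above background on 3 control, 2 TBI and 0 HSC + TBI arrays, and Cd79b on 3, 0 and 0. These 2 probes passed the filter only through the control group, where they were high, so their calls add no support. The other 2 tested were not called. In TBI against control, Cd8a was at -0.90 (limma adjusted p = 0.29) and Cd4 went the other way, at 0.71 (limma adjusted p = 0.26). The 6 measured macrophage markers ran from 10.37 to 11.07 in control, 10.74 to 11.52 in TBI and 10.26 to 10.30 in HSC + TBI rats, and limma called 0 of 6 in each comparison, with 0 at an unadjusted p under 0.05 in TBI against control, 2 in HSC + TBI against control and 5 in HSC + TBI against TBI. Of the stellate cell markers 1 of 6 was called lower in TBI (Lrat) and none in the other pairs (2 and 0 at an unadjusted p under 0.05). For sinusoidal endothelium limma called 0 of 4 (2, 2 and 0 at an unadjusted p under 0.05, with the pairs of groups in the same order as for macrophages), and for neutrophils 0 of 2 (0, 1 and 2). Lyve1 passed the adjusted p in TBI against control (limma adjusted p = 0.047) and missed only the fold minimum, at 1.45-fold. Over all tested probes, 25.5%, 19.6% and 16.3% had an unadjusted p under 0.05 in the same order of pairs. Those called were 7.25%, 3.23% and 0.796%. The part of these cell types in the values of the members was not tested.

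The share of spots well above background was 57.2 to 59.9% on control, 64.1 to 70.1% on TBI and 59.3 to 61.0% on HSC + TBI arrays, and no spot was saturated. The control arrays lay on 1 slide, the TBI arrays on a second and the HSC + TBI arrays on 2 others, so slide and group cannot be told apart for any member. With 3 rats against 3, an exact two-sided permutation test of a single gene could not go below 0.1, and the calls rest on the spread that limma shares across probes.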

How the data were processed

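Per the file headers, the authors read Cy3 intensity with Agilent Feature Extraction 10.7.3.1, whose processed signal per spot is background-corrected. The authors then normalized by quantiles and deposited log2 values, 1 for each probe of each array, which served as an alternative. The median absolute difference from these values was 0.029 to 0.032 per array.

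Here, control spots and outlier spots (84 to 115 of 43379 per array) were left out. Processed signals under 1 were raised to 1. After log2 transformation, quantile normalization over the 9 arrays was followed by averaging over the spots of a probe (limma 3.58.1, R 4.3.3). A probe was above background on an array where over 0.5 of its spots were flagged so. The 25369 of 41012 probes above background on all 3 arrays of a group were tested with lmFit and eBayes in 1 fit of the 3 groups.

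RefSeq accessions named 16968 probes (GRCr8 table). A gene that only carries DBP as a synonym was not taken for Dbp. Where a list gene had several probes, the brightest tested one was used. The text names every member, all called genes of the lists with a few others, and for each member the 3 genes with the highest and the 1 with the lowest correlation. The members, lists and tests were chosen with earlier results of these data known. P-values set a difference between groups against the spread among rats of the same group, which limma shares across probes. The 3 rats per group limit their precision. The alternatives covered the normalization, background correction, filter, test, block, slide and rats left out. Results for 1 marker gene are not reported here.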

Additional observations from a re-analysis of the deposited data

How the results depend on the processing

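Of 252 recomputed differences of the members, 231 kept their direction and their side of the thresholds, 19 changed side, and 2 changed sign without being called (Nfil3 in HSC + TBI against control, -0.12 without control replicate 1 and -0.11 without HSC + TBI replicate 1). Members called in TBI against control numbered 2, and 0 by the methods' t-test with adjusted p and 3 (with Nfil3, adjusted p = 0.0025) with the slide as a random block. With 1 rat left out the count was 2 throughout. For HSC + TBI against control the count of 1 became 0 without the filter on dim probes and by the methods' t-test with adjusted p, 2 (with Bhlhe40) by that t-test with unadjusted p and with the slide as a random block, and 0 to 1 with a rat left out. For HSC + TBI against TBI the count of 0 became 2 (Dbp and Tef) by the t-test with unadjusted p and 3 (with Nfil3) with the slide as a random block. The cause was not tested. The slide block had a consensus correlation of -0.327. Every slide held rats of only 1 group, so this block could not account for slide, and the calls gained with it add no support. It called 17.8%, 10.1% and 8.89% of all probes in the order above, beside 7.25%, 3.23% and 0.796% in the main fit. The methods' t-test called 0.572%, 0.394% and 0.00788% with adjusted p, and 10.1%, 8.12% and 5.39% with unadjusted p. Without the filter, 1.46% were called in HSC + TBI against control.

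With the replicate number as a block, the counts were 2, 0 and 0 in the order above, beside 6.21%, 3.07% and 0.382% of all probes. The call of Dbp in HSC + TBI against control was lost (limma adjusted p = 0.052). Same-numbered rats of control and TBI deviated together with correlations of 0.191, 0.117 and 0.0977, and the other pairs of groups between -0.144 and 0.015, so the numbers were not taken to pair the rats. Taking any probe of a member, or its dimmest, was not run, since each matched member had 1 probe. For the lists, the same alternatives were added after seeing the data. In TBI against control, the methods' t-test with adjusted p called 0 genes in each of the 4 lists. With only the 2 compared groups in the fit, the counts of the clock, D-box and RORE lists there were 3, 1 and 2. Without the filter they were 4, 2 and 4, and with the slide as a random block 8, 10 and 9. Over all probes these 3 settings called 4.63%, 4.36% and 17.8%, and that t-test called 0.572%, beside 7.25% in the main fit.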
